A study of Mus musculus with 6 samples.

Results

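Ly6c2, Plac8, Chil3, Itgam, Itgax, Itgal, Treml4, Lair1, Xcr1 and Siglech were taken here as markers of recruited monocytes and dendritic cells, though several are also expressed in other leukocytes. They were taken by symbol as 10 of the 32212 rows of a gene count table of mouse liver, by a rule that sets no threshold on any value. The symbols were picked with earlier results of these data known. The study asked how male mice that lack chromogranin A (CgA, a prohormone of endocrine and neuroendocrine cells) age. The paper describes liver RNA sequencing at younger ages as well, but the libraries used here are all labelled 2 yr. One group was 3 WT mice and the other 3 CgA-KO mice, all male on a C57BL/6 background, fed a normal chow diet and kept in a 12 h light cycle. Each library came from about 30 mg of liver of 1 animal. How the CgA allele was disrupted is not given in the sources used here, and the gene for CgA, Chga, had 0 counts in all 6 libraries, so it could not check the labels. The whole piece of tissue was used, so the libraries hold hepatocytes, sinusoidal cells and the blood left in the organ.

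Monocytes leave the bone marrow, circulate and enter tissues. Classical mouse monocytes carry much Ly6C and follow the chemokine receptor CCR2 into inflamed tissue, while non-classical monocytes carry little Ly6C and patrol the vessel wall. Dendritic cells sample antigen and present it to T cells. Conventional type 1 cells carry XCR1 and cross-present to CD8 T cells, and plasmacytoid cells carry Siglec-H and make type I interferon. In liver these cells live beside Kupffer cells, the resident macrophages of the sinusoids. Few of the genes belong to 1 cell type. CD11b (Itgam) is also on neutrophils, CD11a (Itgal) is on nearly all leukocytes, LAIR1 is on many leukocytes, and Ym1 (Chil3) is also made by neutrophil precursors.

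Totals ran from 10558616 counts in WT replicate 1 to 31087453 in WT replicate 2. Levels are CPM, counts scaled to the number of reads in tested genes, in the usual unit of CPM, and by TMM factors, and 3 counts, taken as the lowest level that could be seen, corresponded to 0.0951 to 0.269 CPM. The hepatocyte markers Alb, Apoa1, Cps1 and Ttr summed to between 38139 and 80760 CPM, so each library read as liver, and their ranges in WT and CgA-KO overlapped. The 4 pan-leukocyte markers (Coro1a, Cd52, Laptm5, Ptprc) summed to 68.1, 26.3 and 21.1 CPM in WT replicates 1, 2 and 3 and to 214, 379 and 197 CPM in CgA-KO replicates 1, 2 and 3. All CgA-KO livers lay above all WT livers in this sum. CgA-KO replicate 2 stood apart from both other CgA-KO livers, since markers of neutrophil precursors summed to 261 CPM there against 2.32 and 9.37 CPM, and those of T and NK cells to 89.3 CPM against 18.7 and 19.5 CPM. Results that rest on that library are given with and without it.

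For Ly6c2 and Chil3 a near copy lies in the same gene cluster, so the sequence decides which row a read can be counted in. The coding sequence of Ly6c2 was identical to that of Ly6c1 at 90.6% of 393 aligned bases, and that of Chil3 to Chil4 at 95.4% of 1194. The stretches of 60 coding bases that follow show one place in each pair where the copies differ, with the differing bases in capitals (bases 6 to 65 of the coding sequence for Ly6c, bases 500 to 559 for Chil, GENCODE transcripts of GRCm38). The Ly6c window held 6 differences and the Chil window 10.
Ly6c2: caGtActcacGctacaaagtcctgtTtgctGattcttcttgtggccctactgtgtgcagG
Ly6c1: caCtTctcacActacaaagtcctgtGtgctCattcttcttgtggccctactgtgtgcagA
Chil3: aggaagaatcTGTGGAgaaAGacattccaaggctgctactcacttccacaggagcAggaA
Chil4: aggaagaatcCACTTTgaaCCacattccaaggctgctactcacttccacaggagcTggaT
Of all stretches of 31 bases in Ly6c2 transcripts, 23.7% also occurred in some other gene and 21.4% in Ly6c1, and of those in Chil3, 41.5% also occurred in 4 other genes and 28.9% in Chil4. Yet the row of Chil4 held 1 count over the 6 libraries and Ly6c1 between 1 and 20 counts, against up to 1068 for Chil3 and 2864 for Ly6c2. The Ly6c1 levels overlapped between the genotypes, with an adjusted p of 0.229 in edgeR. Itgam shared more, with 68.1% of its stretches in some other gene and 67.2% in Gm49368, a same-strand gene model that overlaps it and was not analysed here. Itgax shared 10.7% with Itgad. For Treml4 and Plac8 none was shared, and for Itgal, Lair1, Xcr1 and Siglech the shared part was 3.05% or less.

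Promoters are shown for Itgam, Treml4 and Lair1, the 3 members that passed the test in every fit run. Each is the RefSeq window from 250 bases before the start of transcription to 50 after it, read along the gene (GRCm38.p6). They lie at chr7:128062390-128062689 on the plus strand, chr17:48264045-48264344 on the plus strand and chr7:4063155-4063454 on the minus strand, in that order. Capitals mark GAGGAA and its reverse complement TTCCTC, the letters at the heart of sites of PU.1, a transcription factor of myeloid cells.
Itgam: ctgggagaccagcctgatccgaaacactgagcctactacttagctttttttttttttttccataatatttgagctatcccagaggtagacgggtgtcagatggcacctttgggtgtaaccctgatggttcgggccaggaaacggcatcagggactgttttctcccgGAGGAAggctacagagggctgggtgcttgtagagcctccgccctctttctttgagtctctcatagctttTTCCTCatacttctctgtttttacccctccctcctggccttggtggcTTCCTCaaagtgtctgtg
Treml4: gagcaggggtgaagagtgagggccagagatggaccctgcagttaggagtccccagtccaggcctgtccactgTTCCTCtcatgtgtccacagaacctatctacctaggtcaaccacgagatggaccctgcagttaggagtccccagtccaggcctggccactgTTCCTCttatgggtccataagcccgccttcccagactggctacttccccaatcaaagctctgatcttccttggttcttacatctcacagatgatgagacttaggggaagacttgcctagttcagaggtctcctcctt
Lair1: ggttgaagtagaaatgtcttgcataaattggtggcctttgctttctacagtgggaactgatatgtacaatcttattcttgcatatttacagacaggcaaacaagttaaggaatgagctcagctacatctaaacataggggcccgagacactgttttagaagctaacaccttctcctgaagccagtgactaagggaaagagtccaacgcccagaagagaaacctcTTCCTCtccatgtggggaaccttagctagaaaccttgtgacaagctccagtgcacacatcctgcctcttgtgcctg
The letters occurred in a promoter of 6 of the 9 members that the RefSeq table holds (Itgam, Treml4, Lair1, Ly6c2, Plac8 and Siglech) and in 28.3% of all 32851 promoters of that length. These figures are not alike, since a member counts if any of its windows matches, while the share is of single windows. Plac8 and Ly6c2 have a further window each, and that of Plac8 held no match. No match was found in the windows of Itgax, Chil3 and Xcr1, and Itgal has no entry. A match is a string of letters and was not tested as a binding site.

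The mean level of all 10 members was higher in CgA-KO than in WT liver. Of the 9 that passed the filter on low counts, 6 were called higher and 0 lower (edgeR quasi-likelihood test with Benjamini-Hochberg adjustment over 13867 genes, call at an adjusted p under 0.05). The called genes were Lair1, Treml4, Itgam, Chil3, Itgax and Itgal. Chil3 had reached the low-count filter in the CgA-KO libraries alone, so that it could enter the test only by being high there. Its call gives no support to any count of called members given here, by edgeR or DESeq2, with or without CgA-KO replicate 2. Chil3 is also among the genes of the median given below. Of all genes tested, 8.6% were called higher and 3.84% lower. The 3 CgA-KO livers lay wholly above the 3 WT livers for 8 of the 10 members, where 19% of tested genes did the same. The median log2 fold change of the tested members was 2.50, against -0.01 over all tested genes, of which 13.9% exceeded 1. DESeq2 called 6 members higher, beside 10.8% of the genes it tested. Without CgA-KO replicate 2, edgeR called 4 members (Lair1, Treml4, Itgam and Chil3), beside 5.08% of genes. In whole liver, more cells of a type and more RNA per cell cannot be told apart. With 3 libraries against 3 the smallest exact permutation p is 0.1, and every member without overlap had that value.

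**Figure D1:**
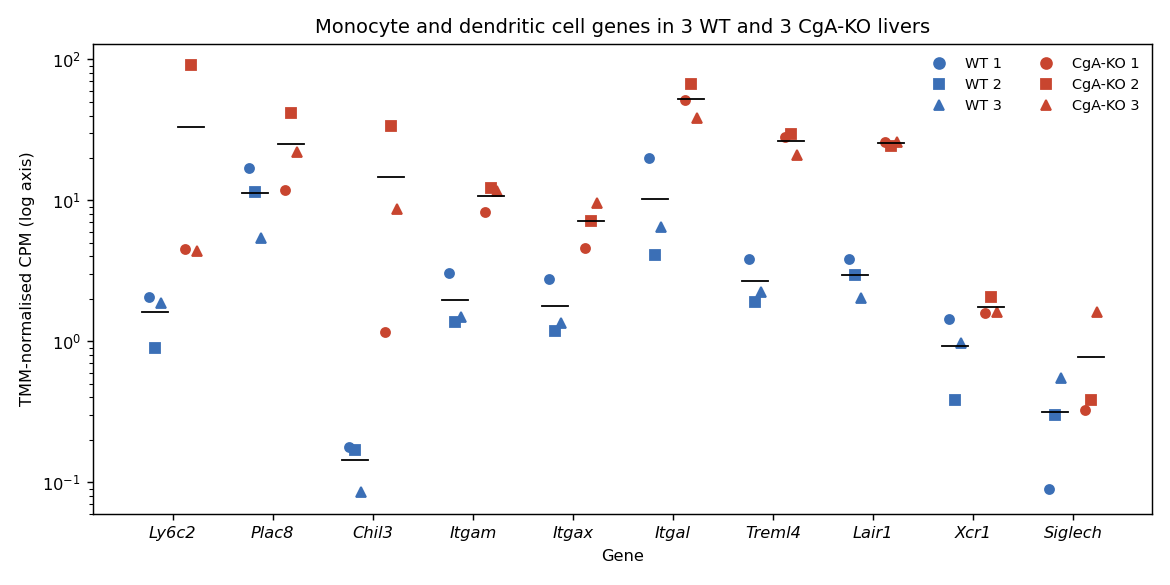
TMM-normalised CPM (log axis) of the 10 genes in each of the 3 WT (blue) and 3 CgA-KO (red) livers, with a bar at each group's mean. Lair1 and Treml4 form tight groups well above WT, whereas Ly6c2 and Chil3 spread widely over the CgA-KO livers, up to 90.8 and 33.9 CPM in replicate 2.

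Ly6c2 encodes the Ly6C antigen by which classical monocytes are sorted, and it lies at chr15:75108158-75111970 on the minus strand (GRCm38, as for all positions given for genes). WT replicates 1, 2 and 3 held 2.06, 0.893 and 1.86 CPM of it, and CgA-KO replicates 1, 2 and 3 held 4.55, 90.8 and 4.39 CPM. All CgA-KO livers lay above all WT livers, but replicate 2 held 91.0% of the CgA-KO signal and stood 20.3-fold above the mean of replicates 1 and 3. The mean was 1.61 ± 0.625 CPM (SD, n = 3) in WT and 33.3 ± 49.9 CPM (SD, n = 3) in CgA-KO. The log2 fold change of 4.41 (SE 1.32) was not called, with an adjusted p of 0.0715 in edgeR. Without CgA-KO replicate 2 it fell to 1.53 (edgeR adjusted p = 0.0808), while leaving out CgA-KO replicate 1 or 3 instead gave a call (4.95 in each, adjusted p = 0.0481 and 0.0258).

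Chil3 encodes Ym1, a chitinase-like protein without chitinase activity that is secreted by classical monocytes, alternatively activated macrophages and neutrophil precursors (chr3:106147554-106167564, minus strand). It had 2, 4 and 2 counts in the WT libraries, and 25, 1068 and 194 in CgA-KO replicates 1, 2 and 3. In CPM this was 0.179, 0.170 and 0.0847 against 1.16, 33.9 and 8.70, or 0.145 ± 0.0521 against 14.6 ± 17.1 (SD, n = 3 each). WT was at or near the floor, and the CgA-KO livers differed among themselves, with 77.5% of their signal in replicate 2 and the lowest level in replicate 1. The counts pooled over each genotype stood in a ratio of 124, with a 95% counting interval of 62.9 to 289 that leaves out the spread between animals. Chil3 rose by 6.67 on the log2 scale (SE 1.26, edgeR adjusted p = 0.0132), and by 5.13 when CgA-KO replicate 2 was left out (adjusted p = 0.0304). The call was lost without WT replicate 1, 2 or 3 (adjusted p = 0.0809, 0.124 and 0.126). Chil3 passed the low-count filter through the CgA-KO libraries alone.

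Plac8 encodes a small cysteine-rich protein of myeloid cells, lymphocytes and plasmacytoid dendritic cells (chr5:100553725-100572245, minus strand). It stood at 17.1, 11.4 and 5.38 CPM in WT and 11.8, 42.0 and 22.0 CPM in CgA-KO replicates 1, 2 and 3. The groups overlapped, since CgA-KO replicate 1 lay below WT replicate 1. Its log2 fold change was 1.18 (SE 0.501) with an edgeR adjusted p of 0.158, and 0.64 (adjusted p = 0.454) without CgA-KO replicate 2, which held 55.4% of the CgA-KO signal. The markers that stood high in the same library were those of neutrophil precursors (95.7% of the summed CgA-KO signal in replicate 2), T and NK cells (70.0%) and mature neutrophils (57.4%), and the 7 other genes of classical monocytes had 56.7% of theirs there. Mpo, the myeloperoxidase of granulocyte precursors, named here after its values were seen, had 0 counts in the WT livers and 0, 2107 and 15 in CgA-KO replicates 1, 2 and 3. The part of those cells in Ly6c2, Chil3 and Plac8 was not tested.

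**Figure D2:**
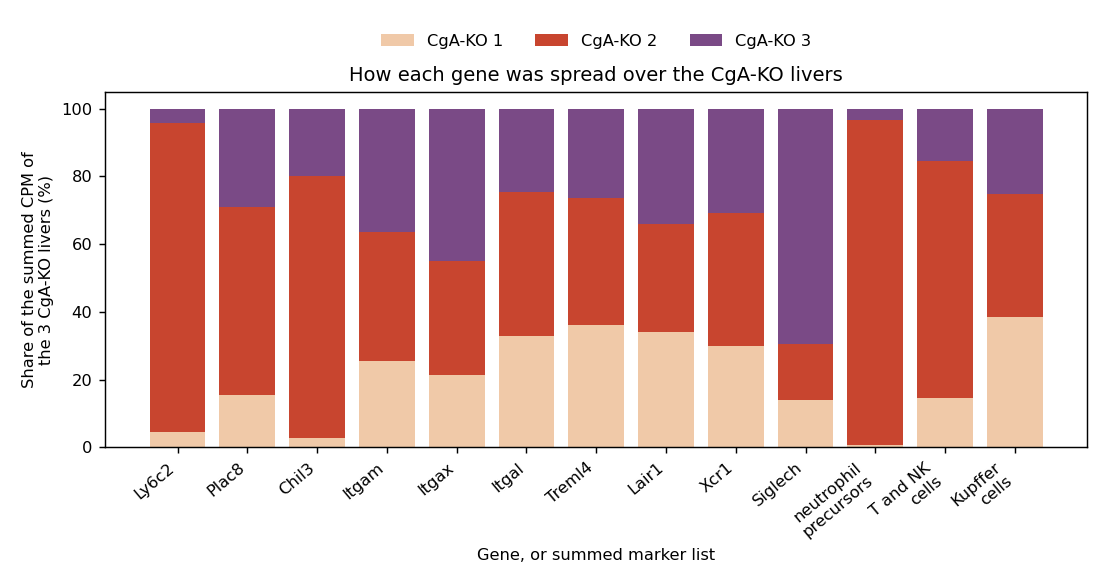
Share of the summed CPM of the 3 CgA-KO livers found in each of them (percent), for each member and for summed markers of 3 other cell types. Ly6c2 (91.0%), Chil3 (77.5%) and Plac8 (55.4%) were mostly in replicate 2, as were neutrophil precursor markers (95.7%) and T and NK markers (70.0%), while Itgam, Itgal, Treml4, Lair1 and Xcr1 were spread over all 3 and Siglech was mostly in replicate 3 (69.6%).

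Itgam, Itgax and Itgal encode the alpha chains that pair with the beta2 chain CD18, made from Itgb2, to form Mac-1, p150,95 and LFA-1, the integrins with which leukocytes hold on to endothelium and to complement-coated particles. All 3 genes lie close together on the plus strand of chr7, Itgal at 127296260-127335138, Itgam at 128062640-128118491 and Itgax at 128129547-128150657. Their coding sequences differed widely, with 64.2% identity between Itgam and Itgax and 54.3% between Itgam and Itgal. All 3 were called higher, and none had a CgA-KO liver within the WT range.

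Itgam stood at 3.05, 1.36 and 1.48 CPM in WT and 8.26, 12.2 and 11.7 CPM in CgA-KO replicates 1, 2 and 3. The lowest CgA-KO liver was above the highest WT liver, and the CgA-KO livers were alike (1.96 ± 0.939 against 10.7 ± 2.16 CPM, SD, n = 3 each). The log2 fold change was 2.50 (SE 0.362, edgeR adjusted p = 0.00581), and it stayed between 2.29 and 2.95 with the call kept when each library was left out in turn. Itgax, the classical marker of dendritic cells, stood at 2.78, 1.19 and 1.36 CPM in WT and 4.60, 7.17 and 9.64 CPM in CgA-KO. It was highest in CgA-KO replicate 3 rather than 2, and its log2 fold change was 2.05 (SE 0.422, edgeR adjusted p = 0.0174). That call rested on the full set of libraries, since leaving out WT replicate 2 or 3 or CgA-KO replicate 2 or 3 gave adjusted p values of 0.0591, 0.0874, 0.0544 and 0.0534, with log2 fold changes of 1.79 to 2.08.

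Itgal, carried by nearly all leukocytes, stood at 19.9, 4.08 and 6.48 CPM in WT and 51.9, 66.6 and 38.7 CPM in CgA-KO replicates 1, 2 and 3. WT replicate 1 was well above both other WT livers but below every CgA-KO liver. Itgal rose by 2.41 on the log2 scale (SE 0.521, edgeR adjusted p = 0.0204), and by 3.34 without WT replicate 1. The call was lost without WT replicate 2 or 3 or CgA-KO replicate 1 or 2 (adjusted p = 0.0887, 0.148, 0.0685 and 0.0718). Itgb2, the shared beta2 chain, rose from 6.11 ± 3.95 CPM to 48.1 ± 19.0 CPM (SD, n = 3 each), a log2 difference of 3.02 by edgeR (adjusted p = 0.00622). Itgad, the remaining alpha chain of the family, had 0, 0 and 1 counts in WT and 8, 18 and 18 in CgA-KO and was below the filter.

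**Figure D3:**
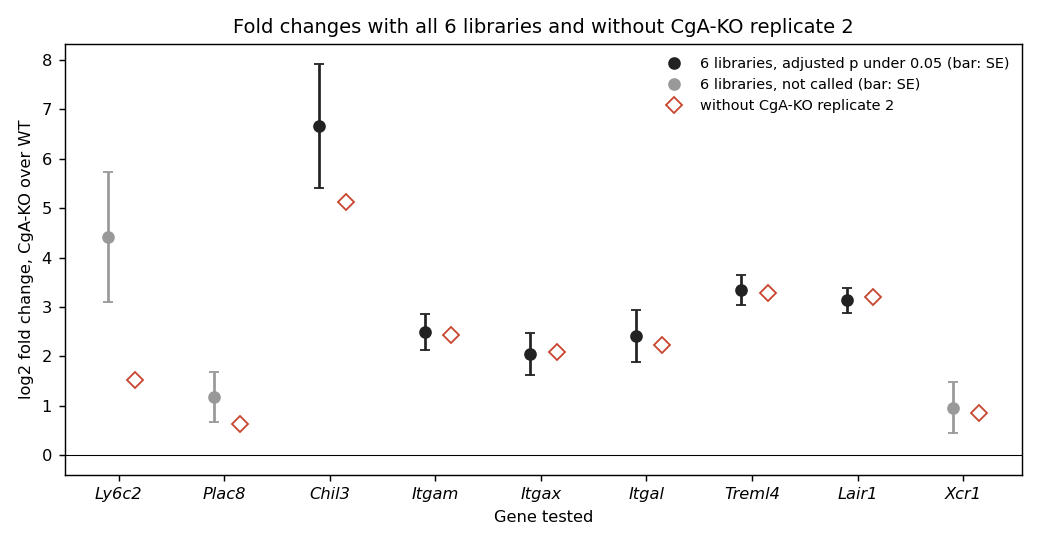
Log2 fold change of CgA-KO over WT for the 9 genes tested, with all 6 libraries (circles, black where the adjusted p was under 0.05 and grey where not, bars are the SE) and without CgA-KO replicate 2 (diamonds). Ly6c2 moved from 4.41 to 1.53 and Chil3 from 6.67 to 5.13, while Treml4, Lair1, Itgam and Itgax changed little.

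Treml4, an immunoglobulin-like receptor of splenic macrophages, non-classical monocytes and dendritic cells that signals through an adaptor with an ITAM, lies at chr17:48264295-48275360 on the plus strand. It stood at 3.85, 1.91 and 2.24 CPM in WT and 28.4, 29.5 and 20.8 CPM in CgA-KO replicates 1, 2 and 3. Every CgA-KO liver lay far above every WT liver (2.67 ± 1.04 against 26.2 ± 4.69 CPM, SD, n = 3 each). The log2 fold change was 3.33 (SE 0.304, edgeR adjusted p = 0.00242). Leaving out each library in turn gave 3.14 to 3.69, with a highest adjusted p of 0.0155.

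Lair1, an inhibitory receptor that binds collagen and recruits phosphatases through ITIMs, lies at chr7:4003402-4063204 on the minus strand. It stood at 3.85, 2.94 and 2.03 CPM in WT and 25.9, 24.2 and 25.9 CPM in CgA-KO. Among the CgA-KO livers the highest value was 1.07-fold the lowest, less than for any other member. The means were 2.94 ± 0.909 and 25.4 ± 0.982 CPM (SD, n = 3 each), and the log2 fold change was 3.13 (SE 0.259, edgeR adjusted p = 0.0018). It ranged from 2.91 to 3.39 when each library was left out, with a highest adjusted p of 0.0143.

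Xcr1, the receptor for the chemokine XCL1 that marks type 1 dendritic cells, lies at chr9:123852315-123862029 on the minus strand. It had 16, 9 and 23 counts in WT and 34, 65 and 36 in CgA-KO, or 1.43, 0.383 and 0.974 against 1.58, 2.06 and 1.61 CPM. The CgA-KO livers lay above the WT livers, though replicate 1 of both genotypes almost met. The log2 fold change of 0.96 (SE 0.510) had an edgeR adjusted p of 0.249 and was not called in any fit. Xcl1, its ligand, had 0, 3 and 3 counts in WT and 20, 10 and 8 in CgA-KO and was below the filter (chosen after its values were seen).

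Siglech, the sialic acid binding lectin of plasmacytoid dendritic cells, lies at chr7:55768178-55778925 on the plus strand. It had 1, 7 and 13 counts in WT and 7, 12 and 36 in CgA-KO, or 0.0896, 0.298 and 0.551 against 0.325, 0.381 and 1.61 CPM. The groups overlapped (exact two-sided permutation test, p = 0.4, n = 3 each) and 69.6% of the CgA-KO signal was in replicate 3. It fell below the low-count filter. In a fit with the filter relaxed to a total of at least 1 count, its log2 fold change was 1.19 with an edgeR adjusted p of 0.409. No difference in Siglech was detectable at this depth.

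Per kilobase of transcript, which allows genes to be ranked within a genotype, Plac8 was highest in WT liver at 9.23 ± 4.79 CPM per kb and Chil3 lowest at 0.0940 ± 0.0339 CPM per kb (SD, n = 3 each). Between them came Treml4, Itgal, Ly6c2, Lair1, Itgam, Itgax, Siglech and Xcr1. In CgA-KO liver the order was Ly6c2 (40.5 ± 60.7 CPM per kb), Treml4 (31.3 ± 5.60 CPM per kb), Plac8 (20.7 ± 12.5 CPM per kb), Itgal, Lair1, Chil3, Itgam, Itgax, Siglech and Xcr1 (0.393 ± 0.0605 CPM per kb). The ranges over the libraries overlapped for every pair of neighbours in both orders. Neighbours were not compared within each library, so whether a step held in every animal was not tested.

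WT replicate 1 had the highest WT level for 9 of the 10 members. It was also the shallowest library and the highest WT library for Ptprc, the gene of the leukocyte antigen CD45, at 23.5 CPM against 4.81 and 7.41 CPM, and for B and plasma cell markers, which summed to 43.1 CPM against 8.89 and 7.07 CPM. The part of this in the members' levels was not tested.

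Since leukocyte markers as a whole were higher in CgA-KO, each member was set against Ptprc in the same library. Ptprc itself stood at 72.2, 75.0 and 50.2 CPM in CgA-KO replicates 1, 2 and 3 and rose by 2.50 on the log2 scale (adjusted p = 0.0179 in edgeR). Of the 9 members tested, 0 had all CgA-KO livers above all WT livers relative to Ptprc, 2 had all of them below (Plac8 and Xcr1), and 7 overlapped. Over all other genes tested, 0.108% lay wholly above and 88.7% wholly below, and the median log2 difference was -2.77. The difference between genotypes in log2 ratio to Ptprc was -1.65 for Plac8 and -1.77 for Xcr1 (exact two-sided permutation p = 0.1 each).

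Itgal kept nearly the same ratio to Ptprc in every liver, with log2 ratios of -0.24, -0.23 and -0.19 in WT and -0.47, -0.17 and -0.37 in CgA-KO. The difference in log2 ratio was -0.30 for Itgam, -0.78 for Itgax, 0.53 for Treml4 and 0.35 for Lair1, all with overlapping libraries (exact permutation p from 0.3 to 0.6). Chil3 differed by 2.20, with log2 ratios of -6.45, -4.24 and -5.43 in WT and -5.85, -1.14 and -2.52 in CgA-KO, so that CgA-KO replicate 1 lay within the WT range. Ly6c2 differed by 0.18, with a single high CgA-KO liver. Some of these overlaps turned on 1 library. Without WT replicate 2, Treml4 and Lair1 lay wholly above WT (0.81 and 0.85). Without CgA-KO replicate 1 Chil3 did (3.54). Without CgA-KO replicate 2, Ly6c2 and Itgal lay wholly below (-1.15 and -0.20), and without CgA-KO replicate 3 Itgax did (-1.21).

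**Figure D4:**
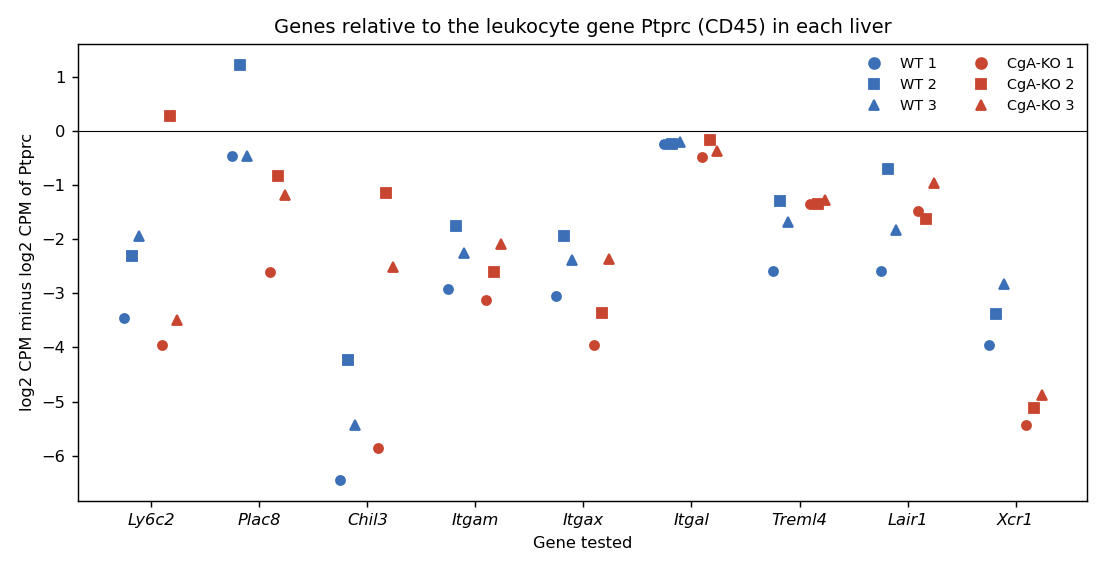
Log2 CPM of each tested member minus log2 CPM of Ptprc (CD45) in each WT (blue) and CgA-KO (red) liver, with a line at equal level. Plac8 and Xcr1 are the only members whose CgA-KO livers all lie below the WT livers, and none lies wholly above.

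The genes whose log2 CPM ran most like that of each member over the 6 libraries are given as a description with no test, since the libraries fall into the 2 genotypes and any gene that differs between these shares that split. Itgal ran closest to Lpcat4, Ptprc and Scube1 (Pearson r = 0.999, 0.998 and 0.997). Lair1 ran closest to Clic1, Plekho2 and Rad51b, Treml4 to Ptgs1, Alyref and Mfap3, and Itgam to Ptpre, Slc35f6 and Iqgap1 (first of each, r = 0.998). Itgax ran closest to Prc1, Dlgap5 and Nod1 (0.996 for the first), and Ly6c2 to Rab27a, Pth1r and Hid1 (0.995). Plac8 ran closest to Chmp4b, Bicc1 and Adsl (0.994), Chil3 to Ssb, Naaa and Pdlim1 (0.992), and Xcr1 to Col5a1, Cd7 and Stat5a (0.992).

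Other genes of the same pathways came from 12 lists that hold 94 genes of the table, of which 76 were tested, 39 called higher and 0 lower (edgeR, as for the members), beside 8.6% and 3.84% of all genes tested. Of the 39, 6 had reached the low-count filter in the CgA-KO libraries alone, so that they could enter the test only by being high there. Other called genes reached it in fewer WT libraries than the filter asks for and so also needed CgA-KO libraries to enter. Among these were Trem1 and Treml2 (1 WT library each) and Cd40 and Clec4a2 (2 each), picked here after their values were seen. Without CgA-KO replicate 2, 23 of the 39 stayed called and 2 other genes were gained, beside 5.08% of all genes called higher. Of the 7 genes of classical monocytes, 4 were called higher, and the list's median log2 fold change was 3.39, against -0.01 over all tested genes. Ccr2, which brings monocytes out of the marrow and into tissue, had 15, 35 and 31 counts in WT and 160, 615 and 373 in CgA-KO replicates 1, 2 and 3, a rise of 3.39 on the log2 scale (edgeR adjusted p = 0.00322). The CgA-KO livers all exceeded WT, and Ccr2 was still called without CgA-KO replicate 2 (3.16, adjusted p = 0.0159). Ifitm6 rose by 4.30 on the log2 scale (edgeR adjusted p = 0.00434), but with 4, 7 and 3 counts in WT it passed the filter through the CgA-KO libraries alone, as 1 more called gene of this list did. The list still held 4 called genes without CgA-KO replicate 2.

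Non-classical monocyte genes were called higher in 5 of 8, against 8.6% of all genes tested, and the list's median was 2.13 on the log2 scale. They included Adgre4, an adhesion receptor (3.01, edgeR adjusted p = 0.00484), and Cd300ld, an activating receptor (2.79, adjusted p = 0.0128). The 3 not called were Cx3cr1 (1.95, adjusted p = 0.143), Ace (0.49, adjusted p = 0.570) and Eno3 (-0.07, adjusted p = 0.900). The genotypes overlapped for each of these, which are named after their values were seen. Leaving out CgA-KO replicate 2 left 2 genes of the list called, Adgre4 and Cd300ld, against 5.08% of all genes.

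Among type 1 dendritic cell genes, 3 of 7 were called higher, against 8.6% of all genes tested, and the list's median was 1.93 on the log2 scale. Irf8, the transcription factor these cells need, rose by 1.95 (edgeR adjusted p = 0.00774) and Naaa by 2.07 (adjusted p = 0.0137) on the log2 scale, whereas Cadm1 had 0.54 (adjusted p = 0.108). Of the type 2 and pan-dendritic cell genes, 2 of 5 tested were called, Flt3 (2.23, adjusted p = 0.0225) and Sirpa (2.63, adjusted p = 0.012), both also found outside dendritic cells. Flt3 had 4, 7 and 10 counts in WT and passed the filter through the CgA-KO libraries alone, and without CgA-KO replicate 2 it had 1.84 (adjusted p = 0.0716). Zbtb46 is the transcription factor that, among myeloid cells, sets conventional dendritic cells apart from monocytes and macrophages. Zbtb46 had 77, 81 and 82 counts in WT and 96, 112 and 123 in CgA-KO, which overlapped after scaling (edgeR adjusted p = 0.983). In whole liver the cells that gave its reads cannot be told, so this level does not measure dendritic cells. The type 1 list kept 2 calls (Irf8 and Naaa) and the other list 1 (Sirpa) without CgA-KO replicate 2, against 5.08% of all genes.

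Plasmacytoid dendritic cell genes were called higher in 2 of 7 tested, against 8.6% of all genes tested, and the list's median log2 fold change was 0.99. The called genes were Irf7 (1.41, edgeR adjusted p = 0.0145) and Pacsin1 (4.17, adjusted p = 0.0465). Pacsin1 passed the filter through the CgA-KO libraries alone, had 73.1% of its CgA-KO signal in replicate 2 and was not called without it (2.86, adjusted p = 0.159). Bst2, an interferon-induced antigen that marks these cells in the unstimulated mouse, had a log2 fold change of 0.07 (adjusted p = 0.883). Mature dendritic cell genes were called in 2 of 9 tested, the costimulatory molecules Cd86 (2.83, adjusted p = 0.0241) and Cd40 (1.96, adjusted p = 0.0305), and the median of that list was 1.72. Cd40 reached the filter in 2 WT libraries, so it needed CgA-KO libraries to enter the test. Socs2 of that list had 0.82 (adjusted p = 0.228). The call of Irf7 in the first list and that of Cd86 in the second were kept without CgA-KO replicate 2, while Cd40 had 2.17 (adjusted p = 0.0559).

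The beta2 integrin partners and ligands had 3 of 5 tested genes called higher, against 8.6% of all genes tested, and a median log2 fold change of 1.26. Icam1, the ligand of LFA-1 and Mac-1, rose by 1.16 on the log2 scale (edgeR adjusted p = 0.0128), and Tln1, which links integrins to actin, had 0.60 (adjusted p = 0.134). Inhibitory receptors and phosphatases, the company of Lair1, had 7 of 10 called and a median of 2.52. Of the called genes, Clec4a2 reached the filter in 2 WT libraries and needed CgA-KO libraries to enter the test (named after its values were seen). Siglece (2.78, adjusted p = 0.00681) and Lilrb4a (3.15, adjusted p = 0.0117, from the first of 2 rows with that symbol) rose, while the widely expressed Csk and Ptpn11 had -0.06 and -0.04 (adjusted p = 0.868 and 0.919). Without CgA-KO replicate 2 these lists held 2 and 5 called genes, against 5.08% of all genes.

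The Trem family and its adaptor had 4 of 6 called higher, against 8.6% of all genes tested, and a median log2 fold change of 2.69. Tyrobp, the adaptor DAP12 that carries the ITAM, rose by 2.47 on the log2 scale (edgeR adjusted p = 0.00486), and Trem2 had 2.30 (adjusted p = 0.116). Trem3 had 0 counts in all WT livers and 39, 34 and 28 in CgA-KO, through which alone it passed the filter. Trem1 and Treml2, also called, reached the filter in 1 WT library each, so they needed CgA-KO libraries to enter the test. Of the chitinase-like family, Chil1 alone was tested and was called (3.62, adjusted p = 0.00475), but with 2, 3 and 4 counts in WT it too entered the test through the CgA-KO libraries alone, so this list's count gives no support. The Ly6 family had 2 of 3 tested genes called, Ly6a (3.49, adjusted p = 0.00622) and Ly6e (1.86, adjusted p = 0.00723), with a median of 1.86. Growth factors and chemoattractants had 4 of 8 called and a median of 1.81, among them the receptors Csf1r (2.96, adjusted p = 0.0264) and Csf2rb (2.39, adjusted p = 0.0188). The calls kept without CgA-KO replicate 2 were 2 for the Trem family, 1 for the chitinase-like family and 2 for the Ly6 family. Of all genes, 5.08% were called higher in that fit. Of the growth factor list 0 of the 4 were kept (Csf1r 3.09 and Csf2rb 2.45, edgeR adjusted p = 0.0671 and 0.0576), and 2 other genes were gained, Ccl2 and Ccl7, which are named after their values were seen. Ccl2 then had 3.05 (adjusted p = 0.0489), but with all libraries its levels overlapped between the genotypes. CgA-KO replicate 3 held 73.5% of the CgA-KO signal of Ccl2, which had 1.23 (adjusted p = 0.266) when that library was left out instead.

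The marker lists of other cell types moved too, and their part in the members' values was not tested. Kupffer cell markers were called higher in 5 of 6, against 8.6% of all genes tested, the median being 3.46 on the log2 scale, and their summed level was 174, 83.2 and 83.1 CPM in WT and 1206, 1144 and 788 CPM in CgA-KO. Mature neutrophil markers were called in 3 of 5, T and NK cell markers in 4 of 5 tested, and neutrophil precursor markers in 0 of 2 tested. Both of the last, Ngp and Prtn3, had an unadjusted p under 0.05, and DESeq2 called 1 gene of that list (Camp). Summed mature neutrophil markers lay between 8.22 and 13.9 CPM in WT and between 46.0 and 150 CPM in CgA-KO. All 4 pan-leukocyte markers were called. Without CgA-KO replicate 2 the calls were 5 for Kupffer cells, 1 for mature neutrophils, 1 for T and NK cells and 2 for the pan-leukocyte list, against 5.08% of all genes. Of the 3 calls of mature neutrophil markers, 1 (Retnlg) passed the filter through the CgA-KO libraries alone. Of the B and plasma cell markers 0 of 5 were called (0 at an unadjusted p under 0.05, 0 with DESeq2), and their sums overlapped (7.07 to 43.1 CPM in WT, 9.32 to 38.1 CPM in CgA-KO). Of the hepatocyte markers 0 of 4 were called by edgeR (1 at an unadjusted p under 0.05), and DESeq2 called 1, Ttr. Against 3.84% of all genes called lower, erythroid markers had 1 of 3 called lower (Alas2), and endothelial markers 1 of 4 higher (Lyve1) and 1 lower (Clec4g). No list had a gene at 0 in all 6 libraries.

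**Figure D5:**
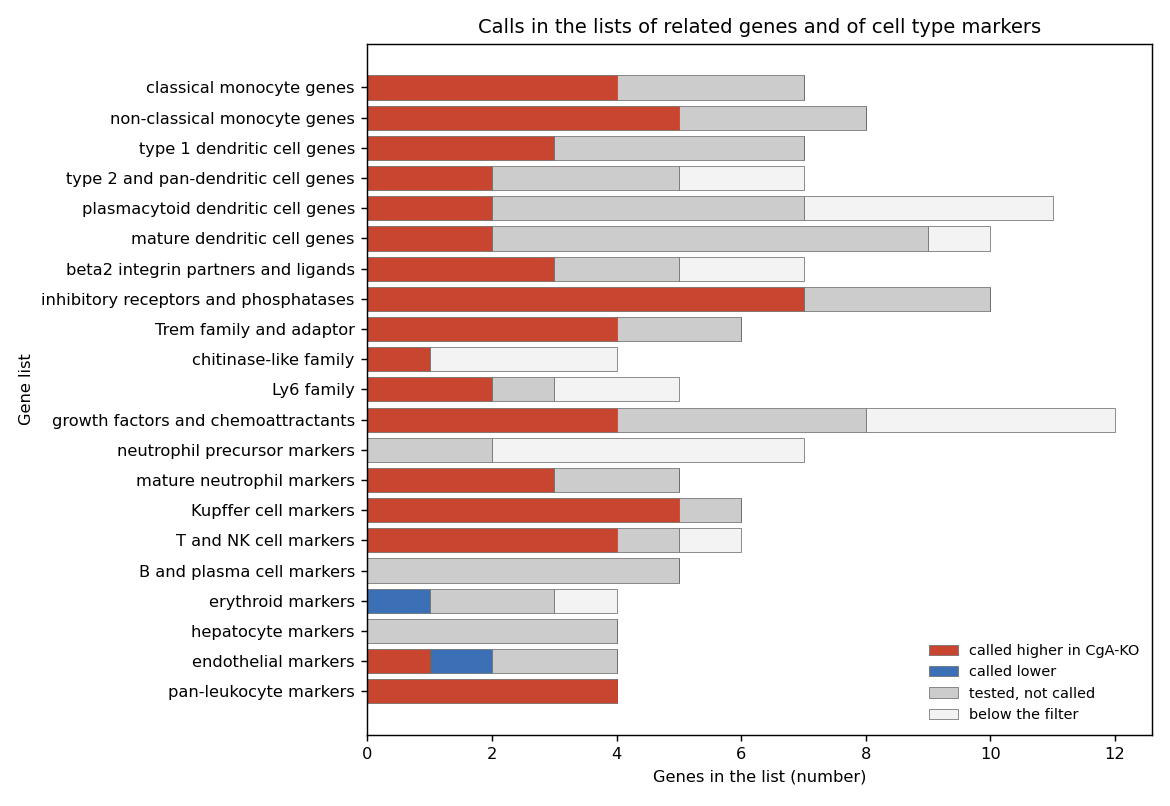
Number of genes in each list that were called higher (red) or lower (blue) in CgA-KO, tested but not called (grey) or below the low-count filter (pale). Of the 12 pathway lists, each held at least 1 gene called higher and none a gene called lower.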

How the data were processed

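Poly(A)-selected libraries of liver RNA from 3 WT and 3 CgA-KO mice, 1 per animal, were sequenced as paired ends. The authors quantified reads with Salmon 1.4.0 against the GRCm38 transcriptome and deposited whole-number counts per gene symbol, with no scaling for library size. The step from transcript estimates to gene counts is not given in the sources used here. All columns were assigned to a sample, leaving 0 without one. Of 32212 rows, 12519 were at 0 in every library and 78 repeated a symbol.

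Counts were tested with edgeR 4.0.16 in R 4.3.3, with TMM factors, filterByExpr at a minimum count of 10 (13867 genes) and the robust quasi-likelihood test of genotype, two-sided, with no covariate. P-values were Benjamini-Hochberg adjusted over all genes tested, with calls under 0.05. The SE is the absolute log2 fold change over the square root of F, an approximation. Log2 CPM for ratios to Ptprc and for likeness used a prior count of 2, which pulls low values together. Levels per kilobase used the transcript with the longest coding sequence. Positions are from GENCODE M21 and promoters from RefSeq, both GRCm38. Intervals and floors cover counting error only. The fits were also run on simulated counts with the same dispersion for all genes and no outlying library. That check does not cover genes that are high in a single library. Alternatives were DESeq2 1.42.0, limma-voom (limma 3.58.1), other scalings, filters and thresholds, a replicate block and leaving out each library.

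The members and lists were chosen with earlier results of these data known. Named genes were the 10 members, Ly6c1, Chil4, Itgb2, Ptprc and Chga, in each list up to 4 genes with the highest mean CPM or the smallest p, and the 3 genes most like each member. One gene that this rule covers is not reported here. Single values were compared by exact permutation tests.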

Additional observations from a re-analysis of the deposited data

How the results depend on the processing

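Of 117 values of the tested members under alternatives, 101 kept their direction and stayed called or not called as before. Another 14 lost the call, 2 gained it and 0 reversed. Lair1, Treml4 and Itgam were called in every fit. The number of members called, 6, became 3 at an adjusted p under 0.01 and ranged from 3 to 6 when each library was left out (3 without WT replicate 2 or 3). It was 4 when every gene with 1 count or more in total was kept, and 5 with limma-voom. Chil3 lost its call under both (edgeR adjusted p = 0.113 and limma-voom 0.186) and Itgal under that filter (0.110). DESeq2 gave Ly6c2 no p-value, as a count outlier, so that value, counted among the 101, kept its direction without a test. Of all genes tested, 1726 were called, 2592 with DESeq2, 360 at an adjusted p under 0.01 and 394 to 2126 without single libraries. The 39 called genes of the pathway lists became 14 to 48 without single libraries. The 2 members that did not overlap relative to Ptprc ranged from 2 to 4 without single libraries. The 8 members with no overlap in CPM became 8 or 9. Scaling by library size alone moved the median log2 difference over all genes to 0.26. Deviations from the group means of same-numbered libraries had r = 0.199, 0.0127 and -0.0659, and not every library correlated best with its own number. With 3 libraries per genotype these values cannot show whether same-numbered libraries share more than a number. With the replicate number as a block, 6 members and 1498 genes of the table were called. Low counts limit Siglech, Xcr1 and the WT level of Chil3.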
